A study of Mus musculus with 48 samples.

Results

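The 10 genes described here mark cytotoxic lymphocytes and natural killer (NK) cells, and they were followed in the blood and the medial prefrontal cortex (mPFC) of stressed and ovariectomized mice. They were Gzma, Gzmb, Prf1, Nkg7, Ncr1, Klrd1, Klrk1, Klrg1, Eomes and Tbx21. They were chosen by name, and every non-control probe that the array design assigns to 1 of them was kept, which gave 12 probes of 55681 and 10 gene names of 34844. Nkg7 and Eomes had 2 probes each, and the other 8 genes had 1. All mice were 17-week-old female C57BL/6J mice in 4 groups of 6: control mice (sham operation, no stress), CUMS mice (sham operation and chronic ultra-mild stress, a series of mild stressors), OVX mice (ovariectomy, no stress) and OVX+CUMS mice (both). Each mouse gave 1 blood sample and 1 mPFC sample, and each sample was hybridized to its own 1-colour array. Blood here was the pellet of heparinized blood after centrifugation, so it was not sorted by cell type.

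Cytotoxic T cells and NK cells kill target cells by releasing granules. Perforin (Prf1) opens the target membrane to granzymes (Gzma and Gzmb, serine proteases), and Nkg7 is a granule membrane protein that takes part in granule release. NK cells decide whether to release them from the balance of activating receptors, such as Ncr1 (NKp46) and Klrk1 (NKG2D), and of inhibitory ones, such as Klrg1. Klrd1 (CD94) forms inhibitory or activating pairs, depending on the NKG2 chain it joins. Tbx21 (T-bet) and Eomes are the T-box transcription factors on which the maturation of these cells depends.

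Because both transcription factors of the list belong to the T-box family, the letters of a T-box core were searched in the 250 bases before each gene's start (RefSeq, GRCm38.p6). Promoter sequences were at hand for 8 of the 10 genes, and Klrd1 and Klrg1 were not among them. The letters AGGTGTGA or, on the other strand, TCACACCT stood before 1 of the 8 genes, Nkg7, and in 1.12% of 32851 promoters. The shorter GTGTGA or TCACAC, which the longer motif contains, stood before Gzmb, Ncr1 and Nkg7, and in 12.3% of all promoters. A match is a run of letters and not a binding site. The 200 bases before these 3 genes follow, 5′ to 3′ on the strand of the gene, with the match in capitals.
Nkg7, chr7:43436938-43437137, plus strand: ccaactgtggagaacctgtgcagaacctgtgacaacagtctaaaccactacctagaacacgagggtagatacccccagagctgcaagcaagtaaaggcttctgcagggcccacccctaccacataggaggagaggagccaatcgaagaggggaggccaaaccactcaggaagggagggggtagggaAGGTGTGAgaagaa
Ncr1, chr7:4337515-4337714, plus strand: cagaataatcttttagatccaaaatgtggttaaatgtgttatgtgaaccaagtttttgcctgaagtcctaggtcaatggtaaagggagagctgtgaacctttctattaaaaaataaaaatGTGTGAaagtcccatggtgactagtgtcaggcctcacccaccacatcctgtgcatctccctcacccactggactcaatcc
Gzmb, chr14:56262335-56262534, minus strand: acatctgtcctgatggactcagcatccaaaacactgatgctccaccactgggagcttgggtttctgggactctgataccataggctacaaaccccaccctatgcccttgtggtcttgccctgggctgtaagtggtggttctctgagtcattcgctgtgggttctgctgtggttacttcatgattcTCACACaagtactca
The match ended 7 bases before the start of Nkg7, 75 bases before that of Ncr1 and 10 bases before that of Gzmb.

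The probes were 60 bases long and their positions are those of the array design (mm9). Gzma was read at chr13:113884035-113884094, Gzmb at chr14:56877916-56877975, Prf1 at chr10:60766941-60767000 and Ncr1 at chr7:4296176-4296235. Klrd1 was read at chr6:129548612-129548671, Klrk1 at chr6:129561864-129561923, Klrg1 at chr6:122220629-122220688 and Tbx21 at chr11:96959417-96959476. The paired probes of Nkg7 and of Eomes gave different results, so the first 30 bases of each are shown, all on the plus strand.
Nkg7 A_51_P499195, chr7:50693148-50693207: tctccatattagtggctatggcagtgtaca
Nkg7 A_55_P2009582, chr7:50693530-50693589: aaggaatgcagaattctgtctctgtccctc
Eomes A_55_P2150717, chr9:118394425-118394484: gctatgaagaacgagtgcccggtgctatta
Eomes A_55_P2184434, chr9:118395189-118395248: tcataagtcatttttaataaatgtggttca
On the genome 322 bases separated the probes of Nkg7 and 704 bases those of Eomes. A_55_P2009582 and A_55_P2184434 lay further along the plus strand in each pair.

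A probe counted as detected in a tissue when it was well above background on all 24 arrays and its signal passed 50 on at least 2 of them. In blood, 10 of the 12 probes, for 9 of the 10 genes, were detected, among 20748 probes in all. The 75th percentile of the signal lay between 54.9 and 192 on the blood arrays and between 572 and 689 on the mPFC arrays, so the blood arrays were dimmer and more uneven. In each tissue slide 1 held the 6 control mice and 2 CUMS mice, slide 2 held 4 CUMS and 4 OVX mice, and slide 3 held 2 OVX and the 6 OVX+CUMS mice. No slide held sham-operated and ovariectomized mice at the same stress level. Blood of CUMS replicate 2 was the dimmest array, and blood of OVX+CUMS replicate 5 had the highest level of the neutrophil markers. In a blood pellet, fewer cells of a type and less RNA per cell cannot be told apart.

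In blood, CUMS went with lower levels of 5 of the 10 detected probes and with a higher level of none. The 5 probes were those of Klrd1, Tbx21, Gzma, Gzmb and 1 probe of Nkg7. The CUMS effect is the mean over both surgeries of stressed minus unstressed mice, on the scale of log2 signal minus the 75th percentile of each array (log2 level below). Of all 20748 probes 48.5% passed an adjusted p of 0.05 for this effect, 29.4% lower and 19.1% higher, so the share of members called in either direction was close to that of all probes and the 5 of 10 called lower stand beside 29.4%. The median CUMS effect was -0.27 over the 10 probes and -0.03 over all probes, and 9 of the 10 probes were below 0.

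Klrd1, whose product pairs with NKG2 chains to read self ligands, had the largest CUMS effect of the members. Its log2 level was 1.34, 1.62 and 1.95 (lowest, median and highest of 6) in control mice and 0.65, 1.10 and 1.56 in CUMS mice. It was 1.64, 1.74 and 1.87 in OVX mice and 0.81, 1.13 and 1.63 in OVX+CUMS mice. Every OVX+CUMS mouse lay below every OVX mouse, whereas CUMS and control mice overlapped, with 4 of 6 CUMS mice below the lowest control mouse. How many of all probes separated groups in this way was not counted, here or below. All 12 stressed mice lay below the median of the unstressed mice. Klrd1 fell by 0.53 (SE 0.11) on the log2 scale with CUMS, or fell by 30.8% (limma, adjusted p = 0.00145).

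Tbx21 encodes T-bet, and its log2 level was -0.31, 0.14 and 0.35 in control mice and -0.86, -0.25 and 0.25 in CUMS mice. It was -0.23, 0.02 and 0.30 in OVX mice and -0.83, -0.47 and -0.04 in OVX+CUMS mice. The groups overlapped, but 11 of the 12 stressed mice were below the unstressed median. Tbx21 fell by 0.40 (SE 0.12) with CUMS (limma, adjusted p = 0.00955). Eomes, the other T-box factor, had a CUMS effect of 0.14 (SE 0.09, adjusted p = 0.173) at its detected probe, and it did not pass the test.

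The granzymes were lower in stressed mice by smaller steps. The log2 level of Gzma was 4.66, 4.82 and 5.25 in control mice and 4.34, 4.66 and 5.11 in CUMS mice. Ovariectomized mice were at 4.77, 5.15 and 5.61 without stress (OVX) and at 4.21, 4.72 and 5.21 with it (OVX+CUMS). For Gzmb these were -0.34, -0.19 and 0.23, then -0.996, -0.34 and -0.10, then -0.51, -0.21 and 0.69, and last -0.62, -0.33 and -0.28. All 4 groups overlapped for both genes, and 10 of 12 stressed mice were below the unstressed median for each gene. Gzma fell by 0.32 (SE 0.12, limma adjusted p = 0.0295) and Gzmb fell by 0.31 (SE 0.12, limma adjusted p = 0.0412) with CUMS. When single arrays were left out in turn, the call of Gzmb was lost in 10 of the 24 fits (without control replicate 1 or 2, CUMS replicate 2, 5 or 6, OVX replicate 3 or 6, or OVX+CUMS replicate 2, 4 or 6), with adjusted p up to 0.0797. That of Gzma was lost in 5 fits, without control replicate 1, CUMS replicate 2, CUMS replicate 5, OVX replicate 3 or OVX+CUMS replicate 4, with adjusted p up to 0.0592. The calls of Klrd1, Tbx21 and Nkg7 were lost in none of the 24.

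The probes of Nkg7 gave different values. At A_51_P499195 the log2 level was 2.18, 2.46 and 2.65 in control mice and 1.84, 2.39 and 2.76 in CUMS mice. Ovariectomized mice were at 2.57, 2.79 and 2.89 without stress (OVX) and at 2.11, 2.25 and 2.50 with it (OVX+CUMS). At A_55_P2009582 it was 4.496, 4.56 and 4.76, then 4.42, 4.58 and 4.77, then 4.41, 4.54 and 4.71, and last 4.11, 4.21 and 4.40. All OVX+CUMS mice lay below all OVX mice at both probes. With CUMS the first probe fell by 0.30 (SE 0.09, limma adjusted p = 0.00889), and the second had an effect of -0.15 (SE 0.06, adjusted p = 0.0501), which did not pass. It passed in 7 of the 24 fits that left out 1 array (CUMS replicate 1, 3 or 4, OVX replicate 2 or 5, or OVX+CUMS replicate 1 or 6), with adjusted p down to 0.0318. Over the 24 arrays, with group means removed, the probes correlated with r = 0.60, as a description of arrays that share slides and depth.

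Ncr1, Klrg1 and Prf1 did not pass the test for CUMS. The log2 level of Ncr1, the activating receptor that marks NK cells, was -2.12, -1.53 and -1.25 in control mice and -2.21, -1.62 and -1.44 in CUMS mice. Ovariectomized mice were at -1.47, -1.37 and -0.998 without stress (OVX) and at -2.13, -1.57 and -1.47 with it (OVX+CUMS). Its CUMS effect was -0.23 (SE 0.11, limma adjusted p = 0.0807), and it passed without control replicate 3 (0.0314). All 12 stressed mice were below the unstressed median. Its signal was low (mean 40.7) and passed 50 on 5 of the 24 blood arrays. All 5 were of unstressed mice (control replicate 1 and OVX replicates 2, 3, 5 and 6). Its highest signal was 38.7 in CUMS mice and 48.2 in OVX+CUMS mice, so the signal rule was met through unstressed mice alone. Klrg1, an inhibitory receptor of mature cells, was at -1.07, -0.73 and -0.40, then -0.86, -0.78 and -0.65, then -0.86, -0.54 and -0.28, and last -0.80, -0.60 and -0.43 in the same order of groups, with overlap between all of them and a CUMS effect of -0.05 (SE 0.08, adjusted p = 0.588). The CUMS effect of Prf1 was -0.08 (SE 0.09, adjusted p = 0.46).

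**Figure D1:**
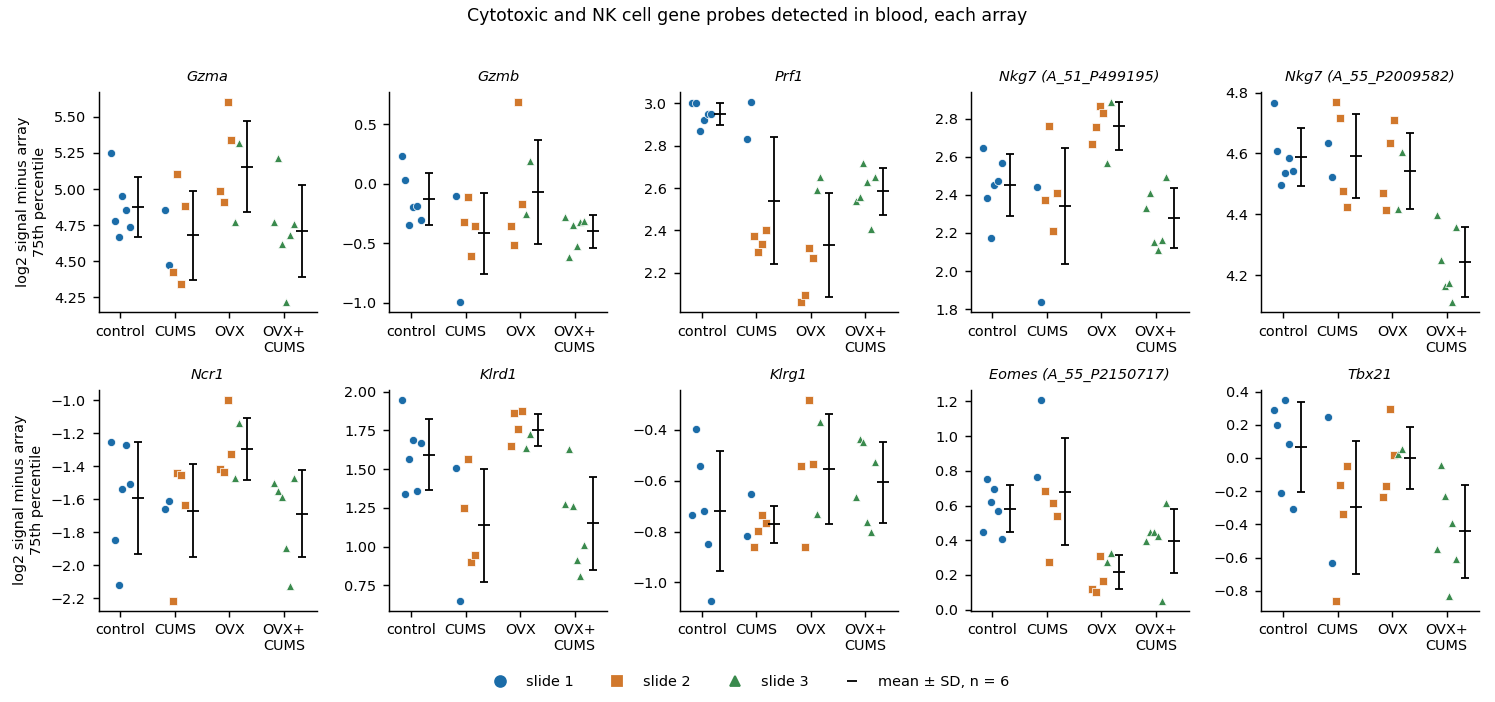
Log2 level in blood of the 10 detected probes (y axis, log2 signal minus the 75th percentile of the array) for each of the 6 mice in control, CUMS, OVX and OVX+CUMS groups (points), with the group mean and SD. The Klrd1 points of OVX+CUMS mice (0.81 to 1.63) sit below those of OVX mice (1.64 to 1.87), and the Prf1 points of OVX mice (2.06 to 2.65) sit below those of control mice (2.87 to 3.00).

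No member probe was called for both CUMS and OVX in blood, where 29.5% of all probes were. The OVX effect, the mean over both stress levels of ovariectomized minus sham-operated mice, was called for 3 of the 10 probes, all lower: Eomes, Prf1 and the A_55_P2009582 probe of Nkg7. Of all probes 55.1% were called for it, 27.4% higher and 27.7% lower, so the share of members called lower was close to the background. The median effect was 0.06 over the 10 probes and 0.04 over all probes, with 6 probes above 0 and 4 below. All 3 calls carried the opposite sign when arrays were shifted by their spike-in probes in place of the 75th percentile, with effects of 0.03 for Eomes, 0.06 for Prf1 and 0.15 for Nkg7. That shift adds 0.35 to every OVX effect and -0.18 to every CUMS effect in blood, so it left the signs of the 5 CUMS calls as they were. It moved the median OVX effect of all probes to 0.39 and the median CUMS effect of all probes to -0.21, and the member medians to 0.41 and -0.45.

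Prf1, the pore-forming protein, had the largest difference from control among the detected members, in OVX mice. Its log2 level was 2.87, 2.95 and 3.00 in control mice and 2.30, 2.39 and 3.01 in CUMS mice. Ovariectomized mice were at 2.06, 2.29 and 2.65 without stress (OVX) and at 2.40, 2.59 and 2.72 with it (OVX+CUMS). All OVX mice and all OVX+CUMS mice lay below the lowest control mouse, and so did 5 of 6 CUMS mice. The share of all probes that separated groups like this was not counted, and control mice shared no slide with OVX or OVX+CUMS mice. The OVX effect was -0.29 (SE 0.09, limma adjusted p = 0.009). Eomes at its detected probe was at 0.41, 0.59 and 0.75 in control mice and 0.27, 0.65 and 1.21 in CUMS mice. Ovariectomized mice were at 0.10, 0.22 and 0.33 without stress (OVX) and at 0.05, 0.44 and 0.61 with it (OVX+CUMS). All OVX mice lay below all control mice, and the OVX effect was -0.32 (SE 0.09, limma adjusted p = 0.00368). The Nkg7 probe A_55_P2009582 had an OVX effect of -0.20 (SE 0.06, limma adjusted p = 0.0109), while A_51_P499195 had 0.12 (adjusted p = 0.217). The remaining OVX effects were 0.17 for Klrg1 (adjusted p = 0.0818, and 0.0385 and 0.0422 without control replicate 2 and OVX replicate 2), 0.16 for Gzma (adjusted p = 0.254), 0.14 for Ncr1 (adjusted p = 0.289), 0.09 for Klrd1, 0.04 for Gzmb and -0.11 for Tbx21, and none of them passed.

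The interaction asks whether the CUMS effect differed between ovariectomized and sham-operated mice. None of the 10 probes passed limma's adjusted threshold, against 1.42% of all probes. Of all 20748 probes 3570 had an unadjusted limma p under 0.05, and so did 3 of the 10. These were Prf1 with 0.66 (SE 0.17, adjusted p = 0.053) and the probes of Nkg7 with -0.38 at A_51_P499195 and -0.30 at A_55_P2009582. The interaction of Prf1 was -0.0077 with slide as a block. The interaction of Prf1 passed with 1 array left out in 4 of the 24 fits, those without CUMS replicate 1 or 2 or OVX replicate 5 or 6, and a probe of Nkg7 also passed without CUMS replicate 2.

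Each treated group was also set against control, and these 3 comparisons share the 6 control mice. In CUMS mice 2 of the 10 probes were called, against 29.6% of all probes: Klrd1 with -0.46 (limma adjusted p = 0.029, exact permutation p = 0.0325) and Prf1 with -0.41 (limma adjusted p = 0.0187, exact permutation p = 0.0216). Neither was called with slide as a block, where they were -0.51 for Klrd1 and -0.03 for Prf1. In OVX mice 2 were called, against 27.1% of all probes: Prf1 with -0.62 (limma adjusted p = 0.00079) and Eomes with -0.37 (limma adjusted p = 0.0279). For both the exact two-sided permutation p was 0.00216, the smallest that 6 against 6 allows. With slide as a block these differences were not called, and that of Eomes turned to 0.050 while that of Prf1 was -0.20. Nkg7 at A_51_P499195 was 0.31 above control in OVX mice (limma adjusted p = 0.0585, exact permutation p = 0.00433), with 5 of 6 OVX mice above the highest control mouse. Control and OVX mice shared no slide, and with slide as a block this difference was 0.029 and was not called. When single arrays were left out in turn, the count for CUMS mice was 0 without CUMS replicate 5, 3 without CUMS replicate 1 and 1 without control replicate 1, 4 or 6 or CUMS replicate 2 or 6. The count for OVX mice was 1 without control replicate 2 or 4 or OVX replicate 1 or 2, and 3 without control replicate 1 or CUMS replicate 2 or 4.

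In OVX+CUMS mice 1 probe was called against control, Nkg7 at A_55_P2009582 with -0.35 (limma adjusted p = 0.0169, exact permutation p = 0.00216), against 6.26% of all probes. All 6 OVX+CUMS mice lay below the lowest control mouse at this probe. Without control replicate 1 the call was lost (-0.31, limma adjusted p = 0.0528). Tbx21 with -0.51 (limma adjusted p = 0.0706), Klrd1 with -0.44 (limma adjusted p = 0.0845) and Prf1 with -0.37 (limma adjusted p = 0.0792) did not pass. With CUMS replicate 2, the dimmest array, left out of the shared estimate of the spread, all 3 did, with limma adjusted p = 0.0498 for Tbx21, 0.0459 for Klrd1 and 0.0316 for Prf1. Tbx21 also passed without CUMS replicate 1 or 3 or OVX+CUMS replicate 2, and Klrd1 without OVX+CUMS replicate 2.

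**Figure D2:**
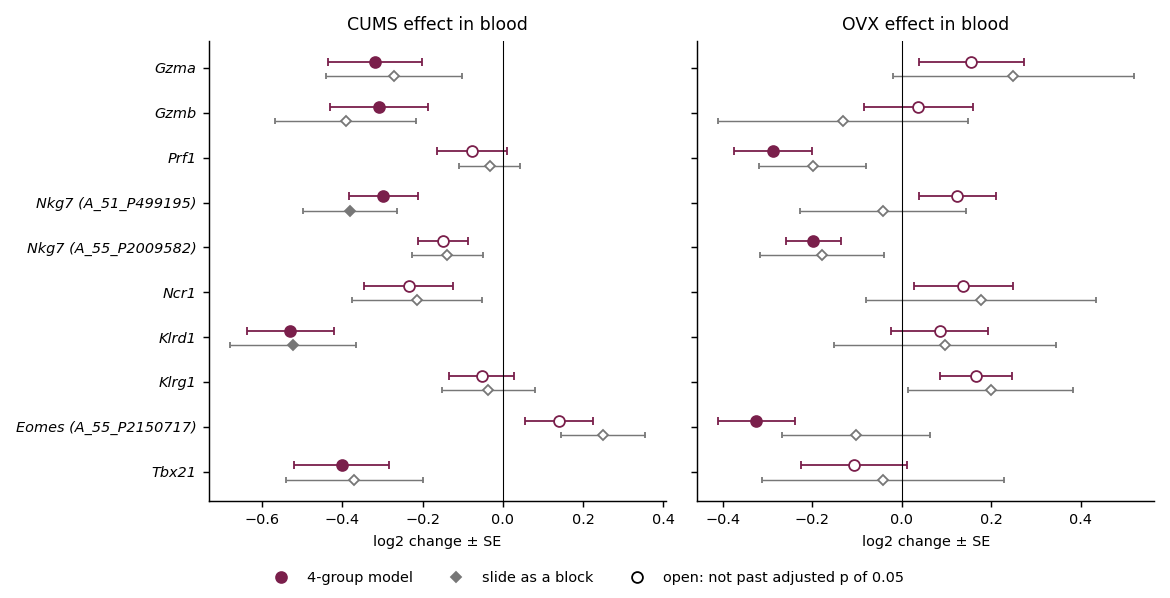
Effects in blood of CUMS and of OVX on the 10 detected probes (x axis, log2 change with its SE), from the model of 4 groups (circles) and with slide as a block (diamonds). Filled symbols passed an adjusted p of 0.05, and the CUMS effects of the first model run from -0.53 (Klrd1) to 0.14 (Eomes), and 9 of 10 are below 0.

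Slide and group overlapped in part, so each stress comparison was also made inside a slide. On slide 1 (2 CUMS against 6 control mice) 9 of the 10 probes were below 0, with a median of -0.13, and on slide 3 (6 OVX+CUMS against 2 OVX mice) 9 of 10 were, with a median of -0.35. No probe of the array passed limma's adjusted threshold in either, though 6381 and 7617 had an unadjusted p under 0.05. Klrd1 was -0.51 on slide 1 and -0.53 on slide 3. Tbx21 was -0.26 and -0.48, Gzma -0.21 and -0.33, Gzmb -0.42 and -0.37, and Nkg7 at A_51_P499195 -0.31 and -0.45. The CUMS mice on slide 1 were replicates 1 and 2, and replicate 2 was the dimmest array. At each of these probes, Klrd1 included, CUMS replicate 2 lay below the lowest control mouse. CUMS replicate 1 lay inside the control range at each (Klrd1 1.51, Tbx21 0.25, Gzma 4.85, Gzmb -0.10, Nkg7 2.44). With slide as a block in the fit, 2 of the 10 probes kept an adjusted p under 0.05 for CUMS, against 49.7% of all probes: Klrd1 (-0.52, limma adjusted p = 0.0144) and Nkg7 at A_51_P499195 (-0.38, limma adjusted p = 0.016). Tbx21 (-0.37, adjusted p = 0.0734), Gzmb (-0.39, adjusted p = 0.0671) and Gzma (-0.27, adjusted p = 0.174) did not. For OVX, for the interaction and for each group against control, no probe of the array passed with this block.

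On slide 2, where stress and surgery differed together, 4 CUMS mice were set against 4 OVX mice. Klrd1 was lower in CUMS mice by a difference of -0.62 (limma adjusted p = 0.0145) and Eomes was higher by 0.35 (limma adjusted p = 0.0436), so 2 of 10 probes were called, against 52.2% of all probes. The count was 4 without CUMS replicate 4 and 1 without any other of the 8 mice.

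The level of Prf1 moved with the slide inside the groups that were split over 2 slides. In blood, the CUMS mice on slide 1 were at 2.83 and 3.01 and those on slide 2 between 2.30 and 2.40. The OVX mice on slide 2 lay between 2.06 and 2.32 and those on slide 3 at 2.59 and 2.65. Within slides 1 and 3 the stressed and unstressed mice differed in Prf1 by -0.03 and -0.04. The part of the slide in the difference between ovariectomized and sham-operated mice cannot be told apart from that of the surgery.

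**Figure D3:**
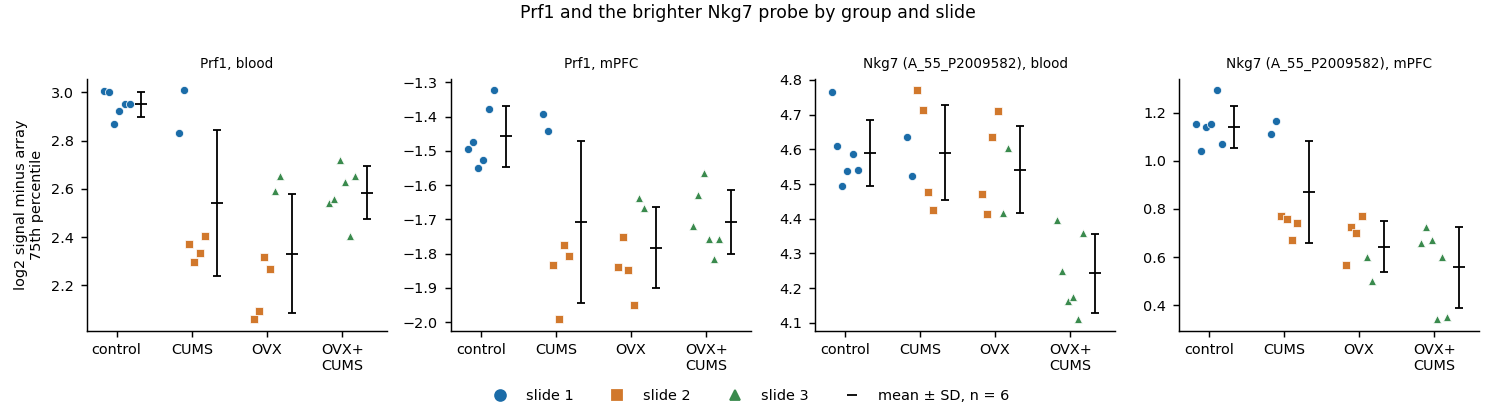
Prf1 and Nkg7 (A_55_P2009582) in blood and in mPFC by group, 1 point for each mouse with colour and shape for the slide, and the group mean and SD (y axis, log2 signal minus the 75th percentile). Blood Prf1 of CUMS mice is at 2.83 and 3.01 on slide 1 and between 2.30 and 2.40 on slide 2.

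Klrk1 and the second probe of Eomes were not detected in blood by the rule above. Klrk1, the activating receptor NKG2D, was well above background on 3 control, 2 CUMS, 6 OVX and 4 OVX+CUMS arrays, 15 of 24 in all. Its mean signal was 16.3, and its log2 level lay between -3.52 and -2.97 in control mice and between -3.36 and -2.54 in OVX mice. Eomes A_55_P2184434 was well above background on 4 of 24 arrays, with a mean signal of 8.57, where the other probe of Eomes was well above background on all 24. No test was made for either probe.

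The other genes of these cells were taken from a list of 86, of which 84 were on the array with 116 probes, and 60 probes were detected in blood. With CUMS 29 of the 60 were lower and 1 was higher, with a median effect of -0.29. With OVX 13 were higher and 3 lower, with a median of 0.11. Of all 20748 probes 29.4% were called lower and 19.1% higher with CUMS, and 27.4% higher and 27.7% lower with OVX. The same shares stand beside the counts of the sublists below. Both lists were drawn up with results of these data known, so their counts are a description.

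Among other granule proteins 3 of 7 probes were lower with CUMS, led by the granzyme Gzmm (-0.54, limma adjusted p = 0.000815). Under OVX the granzyme Gzmk was lower (-0.57, limma adjusted p = 0.00232) and Ctsc, the protease that activates granzymes, was higher (0.51, limma adjusted p = 0.0153). None of the 6 probes of the granule release machinery was called for either effect. Of the NK receptors outside the members, 9 of 17 probes were lower with CUMS and 3 were higher with OVX. The leading ones were Klra7 (-0.49 with CUMS, limma adjusted p = 0.00403) and Klra1 (1.07 with OVX, limma adjusted p = 0.00148), both of the Ly49 family, whose near-identical copies can share signal, so the names are uncertain.

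Of the signalling adaptors 6 of 9 probes were lower with CUMS, with Sh2d1a, the adaptor SAP, at -0.53 (limma adjusted p = 0.00278). Under OVX the kinase Syk was at 0.26 (limma adjusted p = 0.0145) and Cd247, the zeta chain, at -0.33 (limma adjusted p = 0.0288), which turned to 0.020 under the spike-in shift. H2-T23, the ligand of the receptor pair that contains Klrd1, was at -0.20 with CUMS (limma adjusted p = 0.0317) and at 0.25 with OVX (limma adjusted p = 0.00812). Of the cytokine receptors 3 of 6 probes were lower with CUMS, led by Il2rg, the common gamma chain (-0.34, limma adjusted p = 0.00846). Il12rb1 (0.22, limma adjusted p = 0.0452) and Il12rb2 (-0.53, limma adjusted p = 0.0234), the chains of the interleukin 12 receptor, moved in opposite directions with OVX.

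Of 10 probes of other transcription factors, 5 were lower and 1 was higher with CUMS. Runx3, a regulator of cytotoxic cells, was the higher one (0.79, limma adjusted p = 0.00101), and it was also higher with OVX (0.49, limma adjusted p = 0.00891). Ets1 had the largest fall of this group (-0.61 with CUMS, limma adjusted p = 0.00103). The chemokine Ccl5 (-0.36, limma adjusted p = 0.00285) and the homing receptor Cxcr3 (-0.50, limma adjusted p = 0.00126) were lower with CUMS, and S1pr5, which guides NK cells out of tissues, was higher with OVX (0.47, limma adjusted p = 0.0071).

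Markers of other blood cells moved in the same comparisons, in which 29.4% of all probes were called lower and 19.1% higher with CUMS. With OVX 27.7% of all probes were called lower and 27.4% higher. Of the T cell markers 6 of 14 detected probes were lower with CUMS and 3 were lower with OVX, of which Cd3e changed sign under the spike-in shift (-0.22 to 0.13). Of the B cell markers 6 of 8 were lower with CUMS and 5 were higher with OVX, and of the erythroid markers 6 of 8 were higher with CUMS and 6 were lower with OVX. The mean erythroid level, centred on all blood arrays, ran from -0.56 to 0.80 in control mice, from 0.17 to 1.37 in CUMS mice, from -0.94 to 0.18 in OVX mice and from -0.40 to 0.48 in OVX+CUMS mice. That of T cells ran from -0.13 to 0.32, from -0.16 to 0.15, from 0.00 to 0.22 and from -0.61 to -0.04 in the same order. Of the neutrophil markers 2 of 11 were higher with CUMS and 1 with OVX, and of the monocyte markers none of 7 was called for CUMS. The part of these cells in the results above was not tested.

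**Figure D4:**
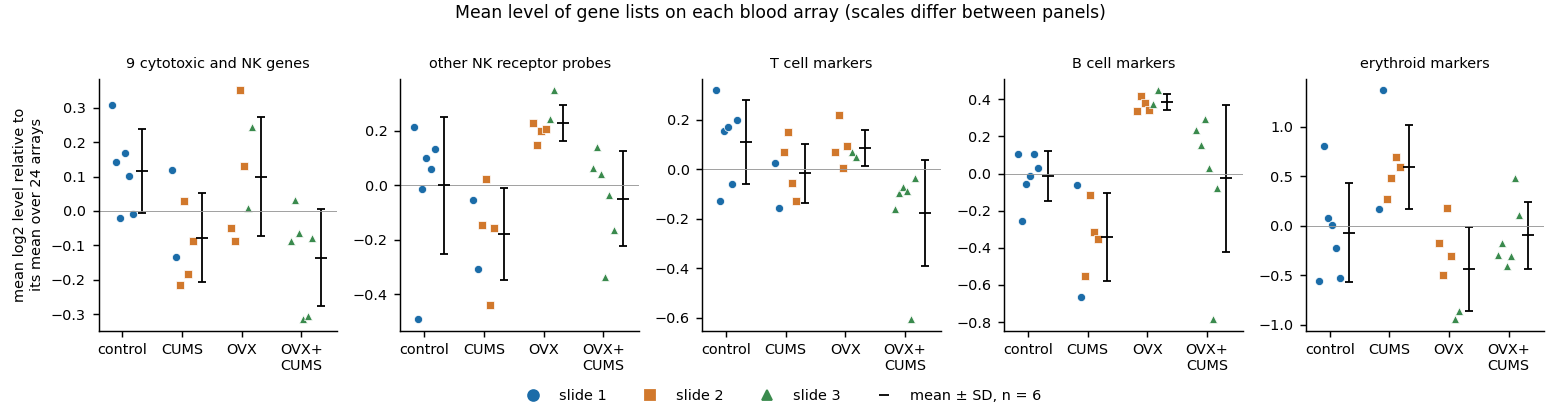
Mean level of the 9 detected members, of other NK receptors and of T cell, B cell and erythroid markers in blood (y axis, log2 relative to the mean of 24 arrays), 1 point for each mouse with colour and shape for the slide, and the group mean and SD. The NK receptor level runs from -0.49 to 0.21 in control mice and from -0.44 to 0.02 in CUMS mice. It runs from 0.15 to 0.35 in OVX mice and from -0.34 to 0.14 in OVX+CUMS mice.

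Members moved together over blood arrays to different degrees, given as a description over 24 arrays that share slides and depth, with group means removed. Gzma followed the mean of the members most closely (r = 0.84), and Eomes (r = 0.17) and Prf1 (r = 0.35) least. Prf1 and Eomes followed each other (r = 0.73), as did Gzma and Tbx21 (r = 0.70) and Gzma and Nkg7 A_51_P499195 (r = 0.70), while the lowest pair was Nkg7 A_51_P499195 with Eomes (r = -0.50). The genes outside the list most like the mean were Klra15 (r = 0.82), Klra12 (r = 0.81), Klra23 (r = 0.78), Klra4 (r = 0.74), Rpl27 (r = 0.74), Klra22 (r = 0.74), Gm4825 (r = 0.72), Klra16 (r = 0.72), B3gnt8 (r = 0.71) and Ftsj3 (r = 0.71). Of these 10 genes 6 carry names of the Ly49 receptor family. Its near-identical copies can share signal, so these names are uncertain and the 6 probes may not read separate genes.

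In the mPFC only 3 of the 12 probes were detected, among 28353, and they were those of Gzma, Prf1 and Nkg7 (A_55_P2009582). The mean signal was 58.8 for Gzma, 198 for Prf1 and 1108 for Nkg7. The other Nkg7 probe had a mean signal of 3.74 and was well above background on no mPFC array. The number of arrays well above background, of 24, was 20 for Tbx21, 12 for Klrg1, 2 for Ncr1, 1 for Gzmb, 1 for Klrd1, 0 for Klrk1, and 0 and 1 for the probes of Eomes. Neuron markers were detected with all 7 probes and microglia markers with all 8 in this tissue. Blood cell markers were detected in part: T cell 7 of 15 probes, monocyte 6 of 9, neutrophil 5 of 12, erythroid 4 of 8, B cell 3 of 9 and platelet 2 of 5. The part of blood in the mPFC signals was not tested.

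**Figure D5:**
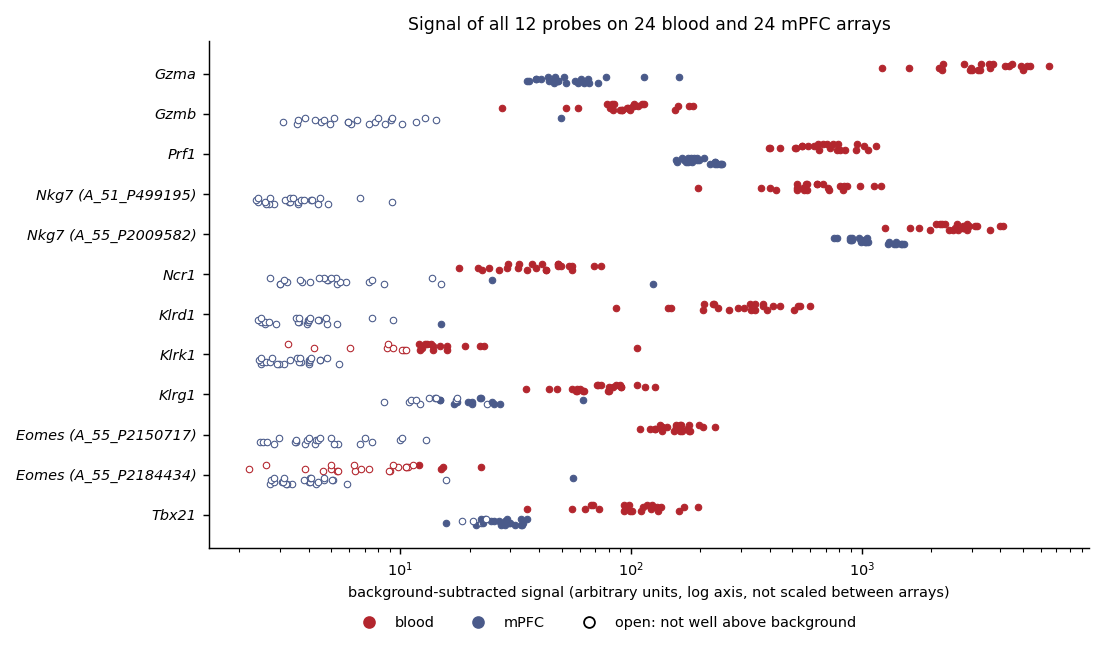
Background-subtracted signal (x axis, log scale, arbitrary units, not scaled between arrays) of the 12 probes on the 24 blood arrays and the 24 mPFC arrays, 1 point for each array, with open points for arrays where the probe was not well above background. Nkg7 A_55_P2009582 is well above background in both tissues (mean signal 2623 in blood and 1108 in mPFC), and A_51_P499195 in blood (662) but on no mPFC array (3.74).

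With OVX 2 of the 3 mPFC probes were called lower, against 11.7% of all probes called lower and 30.9% called in either direction. The call of Nkg7 was at A_55_P2009582 alone, as its other probe was well above background on no mPFC array. Which RNA this probe reads in mPFC was not tested. Nkg7 at this probe fell by 0.40 (SE 0.06, limma adjusted p = 7.99e-05) and Prf1 fell by 0.16 (SE 0.06, limma adjusted p = 0.0403). With slide as a block they were -0.04 and -0.0028 and were not called. The spike-in shift, which adds -0.13 to every OVX effect in mPFC, left 1 of these 2 calls, that of Nkg7. Gzma had an OVX effect of 0.26 (adjusted p = 0.258). For CUMS none of the 3 passed, against 4.2% of all probes, and 1 had an unadjusted limma p under 0.05, as had 6577 of all 28353 probes. For the interaction none passed, against 4.47%, and 2 had an unadjusted limma p under 0.05, as had 6629 of the 28353. Against control, 2 of the 3 were called lower in each of CUMS, OVX and OVX+CUMS mice, those of Prf1 and Nkg7. Of all probes 9.03%, 13.4% and 13% were called lower. In CUMS mice Prf1 was at -0.25 (limma adjusted p = 0.0437) and Nkg7 at -0.27 (limma adjusted p = 0.0341). With slide as a block they were 0.04 and -0.0016, and no probe of the array passed in any of these 3 comparisons.

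The mPFC values split by slide as well. The signal of Prf1 lay between 220 and 248 on slide 1, between 156 and 183 on slide 2 and between 166 and 206 on slide 3, and the CUMS mice on slide 1 were at 230.3 and 230.8. Nkg7 at A_55_P2009582 lay between 1304 and 1531 on slide 1, between 897 and 1068 on slide 2 and between 758 and 1055 on slide 3. The CUMS mice on slide 1 were at 1309 and 1408. With slide as a block no probe of the array passed for OVX. The call of Prf1 was also lost in 12 of the 24 fits that left out 1 array (control replicate 2, 5 or 6, CUMS replicate 1 or 2, OVX replicate 1, 3 or 4, or OVX+CUMS replicate 1, 4, 5 or 6).

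Gzma varied most in the mPFC of OVX+CUMS mice, with signals of 161, 51.4, 46.9, 43.8, 77.9 and 114 in replicates 1 to 6. Elsewhere they ranged from 46.2 to 72.1 (control), from 35.4 to 56.9 (CUMS) and from 38.7 to 64.8 (OVX). Of the OVX+CUMS mice 3 lay above the highest mouse of every other group, and the interaction was 0.99 (SE 0.35, limma adjusted p = 0.0917). With slide as a block the interaction was 0.46 and was not called. Gzma also differed by slide within the OVX mice, from 38.7 to 46.9 on slide 2 and at 60.4 and 64.8 on slide 3. All OVX+CUMS mice were on slide 3.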

How the data were processed

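Blood and mPFC RNA of 24 mice was measured on 48 Agilent 1-colour arrays, scanned on 1 day. Per the file headers, Feature Extraction 10.7.3.1 gave each spot a background-subtracted intensity (62976 spots, 3671 of them controls, designed on mm9). The authors also deposited log2 values. Log2 intensities scaled to each array's 75th percentile matched these within 0.001 for 100% of 55249 probes with 1 spot. Spots of the same probe were averaged, and outlier spots were left out. Probes well above background on all 24 arrays of a tissue and over 50 on at least 2 were tested in limma 3.58.1 (R 4.3.3, data.table version 1.17.8) as 4 groups of 6, two-sided, with Benjamini-Hochberg adjustment over all detected probes at 0.05. The test was checked on simulated data with independent noise and no slide effect, so the check does not cover the overlap of slide and group. The study used two-way ANOVA of the same factors. Exact permutation tests had 924 splits. All member probes are named, with, for each sublist of other genes, the called probes of largest rise and fall, and the 10 genes most like the members' mean. Members and lists were chosen with earlier results of these data known. Alternatives changed the background correction, scaling, detection filter, slide and replicate blocks, and left out arrays. The number of arrays limits the precision. Replicate numbers were not taken to pair mice. In blood, 10 of 36 pairs of arrays with the same number correlated over 0.1, against 71 of 180 pairs with different numbers. In mPFC these were 16 of 36 and 36 of 180, a larger share for the same number, so the mPFC counts are no ground for this choice.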

Additional observations from a re-analysis of the deposited data

Results flagged for a closer look

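In 8 of 96 groups of 6 arrays, 1 array lay far from the other 5 relative to the range of its group, and chance alone flags about 1 in 20 groups. Only 1 of these groups, of 52, belonged to a detected probe. It was Ncr1 in the blood of CUMS replicate 3, at -2.21 with the nearest array at -1.66 (log2 levels throughout). In blood, Klrk1 was at 0.041 in CUMS replicate 1 with the nearest array at -3.02, and at -5.22 in OVX+CUMS replicate 4 with the nearest at -3.54. In mPFC, where these probes were not detected, Nkg7 A_51_P499195 was at -6.09 in CUMS replicate 5 (nearest -7.39), Klrg1 at -3.28 in OVX replicate 1 (nearest -5.18) and Eomes A_55_P2150717 at -6.33 in CUMS replicate 1 (nearest -7.47). Eomes A_55_P2184434 was at -5.26 in OVX replicate 1 (nearest -6.88) and at -3.35 in OVX+CUMS replicate 3 (nearest -6.98).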

How the results depend on the processing

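Of the 10 detected members in blood, 5 were called for CUMS (3 to 6 with 1 array left out), 3 for OVX (3 to 4), 0 for the interaction (0 to 2), 2 for CUMS mice against control (0 to 3), 2 for OVX mice (1 to 3), 1 for OVX+CUMS mice (0 to 4) and 2 within slide 2 (1 to 4). In mPFC the counts were 2 for OVX (1 to 2), 0 for CUMS (0 to 1) and 0 for the interaction (0 to 1). Counts that moved by over 1.5 times follow by setting, and the cause was not tested. With normexp background correction the counts were 1 for OVX, called higher, 1 for the interaction and 0 for OVX+CUMS mice. The OVX calls of Eomes, Prf1 and Nkg7 A_55_P2009582 were all lost there (limma adjusted p = 0.0949, 0.631 and 0.45). With quantile normalization the counts were 1 for the interaction, 4 for OVX mice (2 lower, 2 higher) and 0 for OVX+CUMS mice. They were 1 for OVX in mPFC and 4 within slide 2 (3 lower, 1 higher). With the spike-in shift they were 3 for CUMS, 0 for each group against control and 1 for OVX in mPFC, while the 4 called for OVX in blood were all higher. Without a detection filter, which adjusts over more probes, they were 3 for CUMS, 0 for CUMS mice, 1 for OVX mice, 0 for OVX+CUMS mice, 1 for OVX in mPFC and 0 within slide 2. With probes detected on all 48 arrays, which leaves 3 members, they were 2 for CUMS, 1 for the interaction, 1 for CUMS mice, 1 for OVX mice and 0 within slide 2. With slide as a block they were 2 for CUMS and 0 for OVX in either tissue and for each group against control. Within slide 1 and within slide 3 the count for CUMS was 0. Without both blood arrays that stood apart, an alternative added after the data were seen, it was 3. With the replicate block the counts stayed at 5 for CUMS, 3 for OVX and 0 for the interaction, and no call changed, though the numbers were not taken to pair the mice.

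Of the effects of each factor in blood, of OVX+CUMS mice against control and of the other differences under an unadjusted p of 0.05, the following changed sign. For OVX they were Klrg1 (-0.014), Gzmb (-0.046) and Ncr1 (-0.082) under normexp, Nkg7 A_55_P2009582 (0.15), Tbx21 (0.24), Eomes (0.026) and Prf1 (0.062) under the spike-in shift, Gzmb (-0.13) and Nkg7 A_51_P499195 (-0.042) with slide as a block, and Gzmb without CUMS replicate 2 (-0.021), OVX replicate 3 (-0.039) or both arrays that stood apart (-0.029), with a range from -0.039 to 0.081 over the fits that left out 1 array. For CUMS it was Eomes (-0.042) under the spike-in shift. For OVX+CUMS mice against control they were Klrg1 (-0.024) under normexp, Ncr1 (0.072) and Gzma (0.0068) under the spike-in shift and Eomes (0.15) with slide as a block. The slide block also turned Eomes in OVX mice against control (0.050), the interaction of Prf1 in blood (-0.0077) and in mPFC (-0.094), and Nkg7 A_55_P2009582 for CUMS in mPFC (0.0038).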

Other observations

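Single mPFC arrays showed signal for probes that were near background on the rest of their group. Ncr1 reached a signal of 125 in control replicate 5, where the median of control mice was 6.90. Gzmb reached 49.5 in OVX+CUMS replicate 5, where the median of OVX+CUMS mice was 8.58.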
